A study of Saccharomyces cerevisiae with 22 samples.

Results

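The insertions of the yeast retrotransposon Ty5 that carried the barcode of the Lee1 fusion were set against the insertions of the same strain with no Sir4 protein and no fusion. The Lee1 libraries were chosen by their labels and are replicates 1 and 2 of a multiplex experiment, recovered from pool 1 and pool 2. They held 18399 and 14871 distinct sites, together 33270 of the 444512 sites in the 22 libraries of the series. The Sir4-free library is a single sequencing run and held 79573 sites. It was not part of the pools, so an effect of the fusion cannot be told apart from a difference between experiments or library preparations. A site is an insertion with its own chromosome, position and direction, and it counts as 1 however many reads it has.

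Ty5 is a retrotransposon whose integrase binds the silencing protein Sir4, so in wild-type yeast most of its copies land in the silent chromatin at telomeres and at the silent mating-type loci. In the calling-card assay native Sir4 is removed and a piece of Sir4 is attached to a DNA-binding protein, which leads Ty5 to integrate near the DNA that this protein occupies. Lee1 is a zinc-finger protein of unknown function with CCCH fingers, a type of finger best known for binding RNA, as in the yeast mRNA-decay protein Cth2 (Tis11). The comparison with the Sir4-free strain asks where, if anywhere, the fusion gathered insertions above those that Ty5 makes with no Sir4 to bind.

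The Lee1, the other pooled and the Sir4-free libraries came from 1 diploid background, MATa/MATα. It was homozygous for his3Δ1, leu2Δ0, ura3Δ0, sir4::KanMX and trp1::Hyg and heterozygous for met15Δ0 and lys2Δ0. Both Lee1 and the Sir4-free samples therefore lacked native Sir4. The Lee1 fusion was grown in a pool with fusions of Gal4, Kar4, Rgm1, Rpi1, Sef1, Sfg1 and Yrm1, each told apart by its own barcode inside Ty5, and 2 pools were made as biological replicates. Cells that had gained an insertion were selected on plates, and the flanking DNA was cut with Hinp1I, HpaII or TaqI, ligated, amplified by inverse PCR and sequenced. The medium held glucose or galactose, and the sources used here do not say which of them a given library had.

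The Lee1 sites rested on 269918 and 189542 reads, with a median of 4 and 3 reads per site, and 24.1% and 32.6% of the sites had 1 read. The Sir4-free library had 2238888 reads, a median of 6 per site and 17.3% of sites with 1 read. The other 14 pooled libraries held 4755 to 54987 sites. In the interior of SIR4 (chromosome 4, positions 918001 to 921000 in the files' coordinates), which is replaced in this strain, neither the Lee1 nor the Sir4-free libraries listed a site, and 4 of the 22 libraries listed 7. The Lee1 sites stopped at position 917505 and resumed at 921075, and those of the Sir4-free library stopped at 917494 and resumed at 921709. A count of 0, taken as up to 3 sites, allows a share of up to 0.0163% and 0.0202% in the Lee1 libraries and up to 0.00377% in the Sir4-free library. These limits and the intervals below cover counting error only.

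In 1-kb bins, no stretch of the genome held more Lee1 insertions than the Sir4-free library beyond the spread between replicates. Of 7003 bins with at least 10 sites, edgeR's quasi-likelihood test with Benjamini-Hochberg adjustment called 0 higher (0%) and 2 lower (0.0286%) in Lee1 at an adjusted p below 0.05. At an unadjusted p below 0.05 there were 31 higher and 220 lower bins. This lean to lower bins moved with the scaling of the libraries. With RLE in place of TMM factors the counts were 65 and 126, and with library size only 77 and 108. DESeq2 on the same counts called 0 and 0, with 0 and 12 at an unadjusted p below 0.05. Under the same edgeR test 6 of the other 7 fusions had 56 to 169 higher bins, namely Gal4 169 (2.41%), Sef1 142 (2.03%), Yrm1 136 (1.94%), Kar4 102 (1.46%), Rpi1 68 (0.971%) and Rgm1 56 (0.8%). The remaining fusion, Sfg1, had 0 (0%). These counts share the Sir4-free control, and the Sir4-free library, being single, was assumed to vary like the pooled libraries.

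The 5 bins with the smallest p on the higher side were not called. The bin near STO1, which encodes the large subunit of the nuclear cap-binding complex, held 4 and 3 Lee1 sites and 0 Sir4-free sites. The bin of YMR315W held 4 and 5 against 2, and that of PDE1, a cyclic AMP phosphodiesterase gene, and BRR6 held 5 and 4 against 2. The bins of MSH5, a meiotic crossover gene, and of WTM1 each held 2 and 3 against 0. All 5 had an adjusted p of 0.988 by edgeR, and each rested on 9 or fewer Lee1 sites in both libraries together.

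The called bins lie side by side on chromosome 1. The first, positions 191001 to 192000 at YAR035C-A, held 92 Sir4-free sites, which scaled to the Lee1 totals would be 21.3 and 17.2 sites, but 2 and 0 Lee1 sites were found. Its share of sites was 0.00544% ± 0.0077 (SD, n = 2) in Lee1 and 0.116% in the Sir4-free library, a ratio of 0.052 with a 95% exact interval of 0.0062 to 0.193. Its log2 difference was -4.41 (SE 0.68, edgeR adjusted p = 7.64e-07), where the median over all tested bins was -0.32. Both Lee1 replicates were below the scaled control. With DESeq2 the log2 difference was -4.49 and the bin was not called (adjusted p = 0.292).

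The second called bin, positions 192001 to 193000, lies at the start of SWH1, which encodes a protein of the oxysterol-binding family. It held 0 and 3 Lee1 sites against 65, where 15.0 and 12.1 were expected from the control (log2 -3.37, SE 0.67, edgeR adjusted p = 0.00191). This call rested on replicate 1: without it the adjusted p was 0.884. DESeq2 did not call the bin either, at a log2 difference of -3.36. The bin before the called ones, at the carnitine acetyltransferase gene YAT1, held 2 and 2 sites against 49 (log2 -2.58, adjusted p = 0.218).

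The Lee1 insertions that did fall in these 3 bins were few. In the YAT1 bin replicate 1 listed the minus-direction position 190565 with 38 reads and the plus-direction position 190858 with 41 reads, and replicate 2 listed 190579 with 2 reads and 190769 with 1. In the YAR035C-A bin replicate 1 listed 191573 with 140 reads and 191575 with 1. In the SWH1 bin replicate 2 listed 192402, 192404 and 192409, all in the minus direction, with 1, 66 and 2 reads. In each of the called bins the Lee1 sites lay so close together that they became 1 when sites within 5 bp were joined. The Sir4-free count in the YAR035C-A bin was spread over many positions: its 92 sites were 68 after sites within 5 bp were joined, 59 of the 92 had at least 5 reads, and their median was 8 reads.

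The same bins were also nearly empty in several libraries with other fusions. At YAR035C-A, Sfg1 held 3 and 5 sites, Kar4 3 and 2, Rpi1 1 and 1, Yrm1 4 and 3 and Rgm1 0 and 2. The Gal4 pools held 94 and 95 there and the Sef1 pools 52 and 54. Among the libraries outside the pools, Gal4 on a plasmid held 121, Thi2 in complete medium 31, Leu3 3, Gcn4 2 and Thi2 in starved cells 2. A low count at this bin was therefore seen in the libraries of 5 other pooled fusions as well as in Lee1. For Rgm1, with 4755 and 4946 sites in all, the counts say less. Its replicate 2 had a ratio to the Sir4-free library of 0.350 (95% exact interval 0.0417 to 1.30), which held 1. The Sir4-free library had a single run behind its 92 sites.

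**Figure D1:**
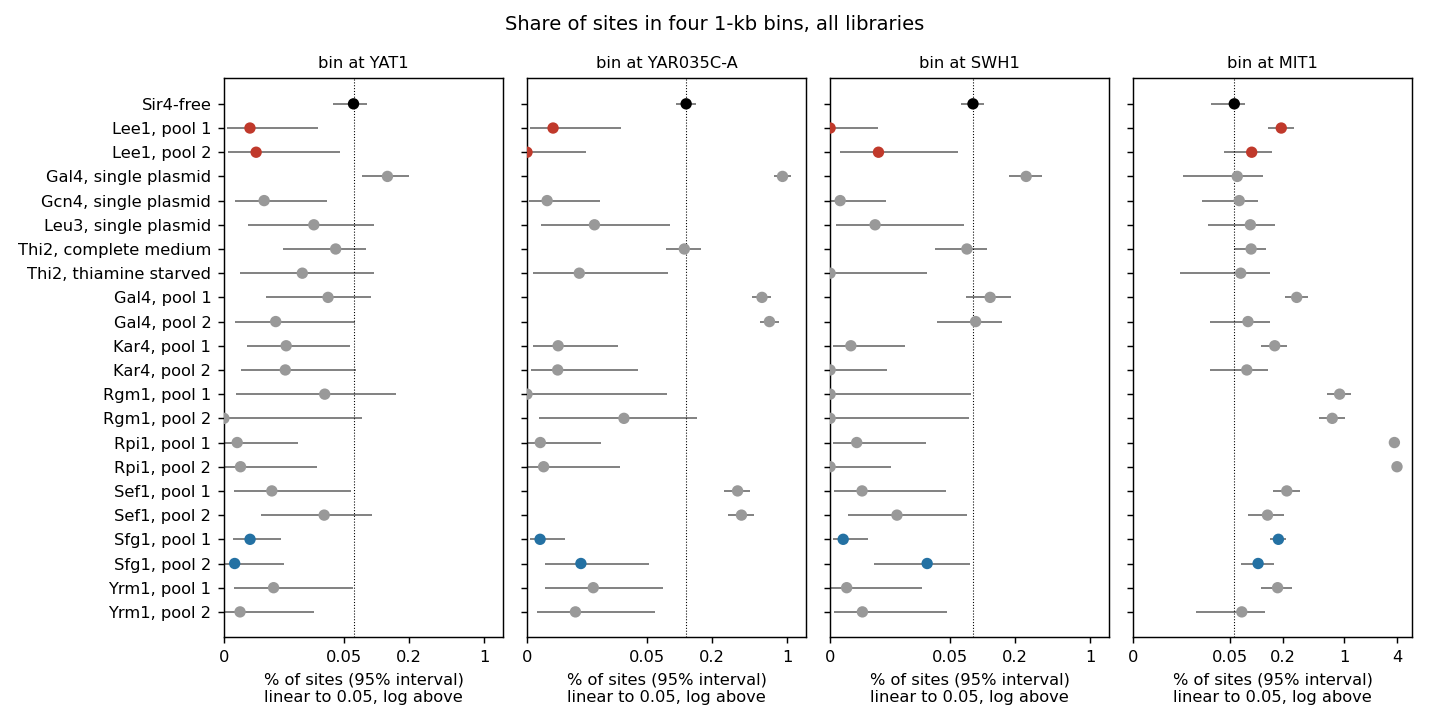
Share of a library's sites in the bins of YAT1, YAR035C-A, SWH1 and MIT1 (percent of sites, linear up to 0.05% and on a log scale above, with 95% exact intervals) in the 22 libraries, grouped by fusion. At YAR035C-A the Lee1 libraries hold 2 and 0 sites, whereas the Sir4-free library holds 92 and the Gal4 pools hold 94 and 95.

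Wider windows gave each test more sites and again no higher call by edgeR. Across 1213 windows of 10 kb the median was 23 Lee1 sites and 56 Sir4-free sites, and edgeR called 0 windows higher (0%) and 1 lower (0.0824%) in Lee1, with 29 higher and 25 lower at an unadjusted p below 0.05. DESeq2 called 0 higher, with 12 at an unadjusted p below 0.05. The other fusions had 199 (Sef1, 16.4%), 168 (Gal4, 13.8%), 160 (Yrm1, 13.2%), 97 (Rpi1, 8%), 78 (Rgm1, 6.43%) and 72 (Kar4, 5.94%) higher windows and Sfg1 had 0 (0%).

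The called window, chromosome 1 from 190001 to 200000, contains both called bins. It held 8 and 15 Lee1 sites where the control scaled to 57.3 and 46.3, from 248 Sir4-free sites. The share was 0.0722% ± 0.0406 (SD, n = 2) against 0.312%, a ratio of 0.222 (95% exact interval 0.138 to 0.341), with a log2 difference of -2.12 (SE 0.29, edgeR adjusted p = 3.16e-10). Outside the 3 bins described, the rest of the window held 4 and 10 Lee1 sites against 42, so most of the deficit lay in those bins. In a fit of the Lee1 and Sir4-free libraries alone the window was not called (adjusted p = 0.971). Across the window Gal4 held 123 and 111 sites, Sef1 59 and 65, Sfg1 22 and 19, Kar4 13 and 10, Rpi1 9 and 6, Yrm1 13 and 7, and Rgm1 5 and 3.

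The next windows on the lower side did not pass the test. The window of YCP4 and CIT2, the latter encoding the peroxisomal citrate synthase, held 42 and 23 Lee1 sites against 293 (log2 -0.87, SE 0.23, adjusted p = 0.103). Its ratio was 0.531, with a 95% exact interval of 0.399 to 0.696, and within it the YCP4 bin held 2 and 0 sites against 38 (adjusted p = 0.218). The window of PRO3, YAT2, GCD11 and CHO1 held 8 and 6 against 87 (adjusted p = 0.763), and the bin of GCD11, which encodes the gamma subunit of translation factor eIF2, held 0 and 0 against 21 (adjusted p = 0.988). The windows of PEX6 and of the nuclear export receptor gene CRM1 held 5 and 3 against 66 and 3 and 6 against 65, each with an adjusted p of 0.518.

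On the higher side the 5 windows with the smallest p held between 11 and 38 Lee1 sites per library. The window of MIS1, RPL19A and AAC3 held 38 and 34 against 109 (log2 0.70, adjusted p = 0.763). The window at chromosome 2 from 720001, which holds DUT1, RIB5 and POP4, had 27 and 25 against 68 (log2 0.91, adjusted p = 0.763). That of ACP1, CNB1 and PXA2 held 15 and 18 against 37 (log2 1.13, adjusted p = 0.763), that of FPR3 and RPL6A 19 and 20 against 46 (log2 1.06, adjusted p = 0.786), and that of MKS1 and IMP4 18 and 11 against 35 (log2 1.01, adjusted p = 0.897). Their genes encode, among others, the ribosomal proteins Rpl19a and Rpl6a, a mitochondrial ADP/ATP carrier (AAC3) and a peroxisomal fatty acid transporter subunit (PXA2), and none of the 5 windows passed the test. With sites of at least 2 reads the ACP1 window was called (adjusted p = 0.0466).

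**Figure D2:**
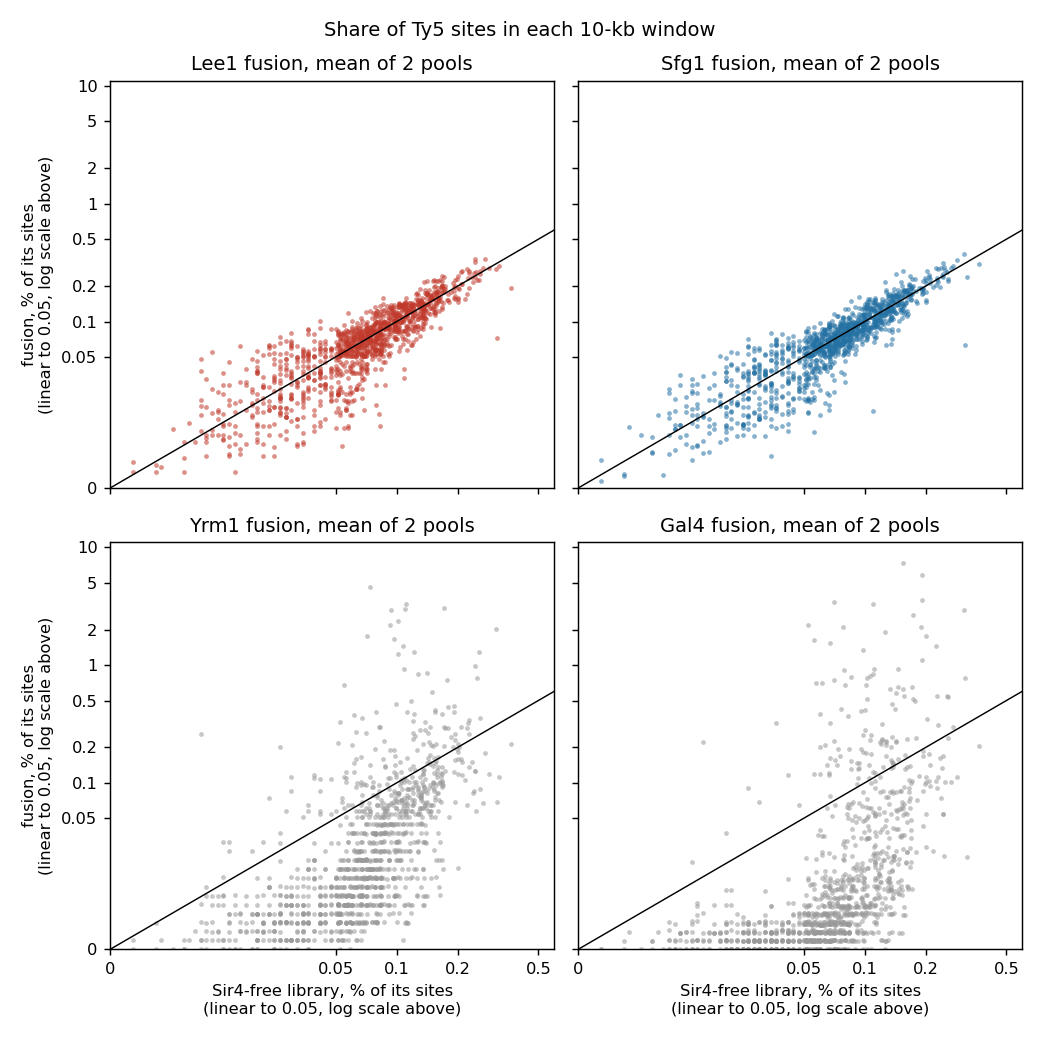
Share of sites per 10-kb window in a fusion (mean of 2 libraries, percent, vertical axis) against the share in the Sir4-free library (percent, horizontal axis) for Lee1, Sfg1, Yrm1 and Gal4, both axes linear up to 0.05% and on a log scale above. Lee1 has 0 called higher windows and 1 lower, and Gal4 has 168 higher.

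The count of called higher windows stayed at 0 at every width tried with edgeR. Widths of 2, 5, 25 and 50 kb gave 5377, 2402, 489 and 248 tested windows, with 0 called higher at each and 3 (0.0558%), 2 (0.0833%), 1 (0.204%) and 1 (0.403%) called lower. At an unadjusted p below 0.05, 46, 38, 14 and 9 were higher and 119, 59, 10 and 11 lower. The range of log2 differences narrowed as windows widened: the central 90% of values ran from -3.32 to 1.32 at 1 kb, from -0.76 to 0.62 at 10 kb and from -0.37 to 0.27 at 50 kb.

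Because a missed threshold does not show equal insertion, the interval of each ratio was taken as well. At 10 kb the 95% exact interval of the Lee1 to Sir4-free ratio of shares had an upper bound below 2 in 951 of 1213 windows (78.4%), and lay wholly between 0.5 and 2 in 569 (46.9%). In 0 windows was the lower bound above 2. At 50 kb the upper bound was below 2 in 248 of 248 windows, and the interval lay within 0.5 to 2 in 246 (99.2%). At 1 kb only 1054 bins (15.1%) had an upper bound below 2, so a doubling was not excluded in most single bins at this depth. Of 7003 bins of 1 kb, the lower bound was above 1 in 100 and the upper bound below 1 in 69. These 95% intervals were not adjusted for the number of bins, so counting error alone can leave 1 outside some of them. The lower bound was above 2 in 5 bins, those of STO1, YMR315W, PDE1, MSH5 and WTM1 described above. None of these passed the edgeR test. The bins of STO1 and WTM1 reached the minimum of 10 sites only with their Lee1 sites. For comparison, at 10 kb the lower bound was above 2 in 41 windows for Yrm1, 53 for Gal4 and 0 for Sfg1. The upper bound was below 2 in 1088 windows (89.7%) for Yrm1, 1109 (91.4%) for Gal4 and 1076 (88.7%) for Sfg1. At 50 kb it was so in 89.9% of windows for Yrm1 and 87.9% for Gal4. A high count of upper bounds below 2 therefore does not by itself show that a fusion gathered no insertions locally.

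**Figure D3:**
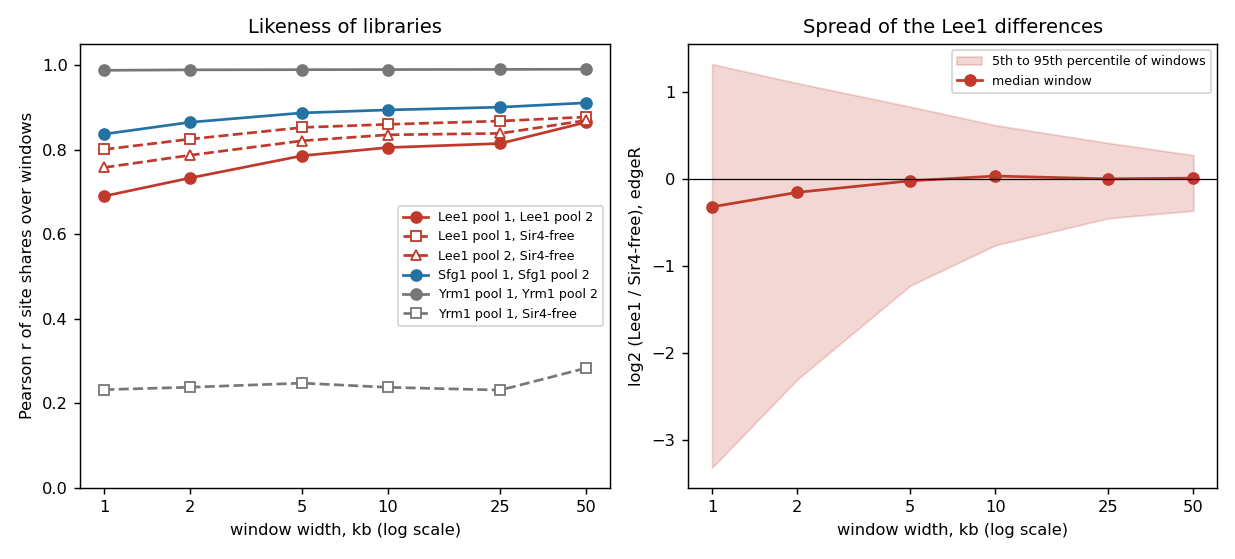
Left, Pearson r between site shares of pairs of libraries by window width (kb). Right, the central 90% of Lee1 minus Sir4-free log2 differences by window width, which runs from -3.32 to 1.32 at 1 kb and from -0.37 to 0.27 at 50 kb.

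The Lee1 replicates resembled the Sir4-free library more closely than they resembled each other. Over 11791 bins of 1 kb, Pearson r between site shares was 0.690 for the Lee1 replicates, and 0.801 and 0.758 for replicates 1 and 2 with the Sir4-free library. Over 248 windows of 50 kb these became 0.865, 0.877 and 0.869. The Sir4-free library holds more sites than either Lee1 library, which bears on the order of these values, and windows are not independent replicates. For Sfg1 the replicates had r of 0.837 at 1 kb. The other 6 fusions had replicate correlations of 0.949 to 0.993 at 1 kb and correlations of 0.187 to 0.368 with the Sir4-free library.

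Lee1 sites were spread over most of the genome. Replicates 1 and 2 had a site in 6889 and 6321 of 11791 bins, and the Sir4-free library in 10907. The 10 fullest bins held 1.41% and 1.30% of Lee1 sites, 1.03% of Sir4-free sites and 1.27% and 1.31% of Sfg1 sites. In the libraries of the other 6 fusions the 10 fullest bins held 8.43% to 28.6% of the sites.

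The bins with the largest mean Lee1 shares lay at genes that were also well filled in the Sir4-free library. The fullest was the bin of MIT1, which encodes a regulator of pseudohyphal growth, with 35 and 13 Lee1 sites (0.139% ± 0.0727, SD, n = 2) against 0.0553% in the Sir4-free library. Its log2 difference was 1.08 with an edgeR adjusted p of 0.988, and the replicates differed widely. The bin of YAP6, a bZIP transcription factor gene, held 23 and 20 sites (0.130% against 0.0691%, log2 0.61). The bin of PCL2, a cyclin of the Pho85 kinase, held 18 and 24 (0.130% against 0.0779%, log2 0.40).

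Of the other 7 bins in the fullest 10, the first bin of chromosome 2 held 27 and 16 sites (0.127% against 0.118%), the bin of the cell-wall mannoprotein gene CWP2 held 26 and 15, and that of TEC1, a transcription factor of filamentous growth, held 24 and 14 (0.112% against 0.0804%). The bins of TLD1, of VTC1 and ALD5, of IPT1 and of YLR257W held 26 and 16, 21 and 20, 20 and 18, and 16 and 21. None of the 10 passed the edgeR test against the Sir4-free library, and all 10 had an adjusted p of 0.988.

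The MIT1 bin was the only 1-kb bin called higher by a test of single libraries. Fisher's exact test against the Sir4-free library called 1 bin higher (0.0164%) and 2 lower (0.0328%) with replicate 1, 0 higher (0%) and 1 lower (0.0166%) with replicate 2, and 1 higher (0.0148%) and 2 lower (0.0297%) with both summed. At 10 kb it called 1 window higher (0.0824%) and 1 lower (0.0824%) with replicate 1, 0 and 2 (0% and 0.165%) with replicate 2, and 0 and 2 (0% and 0.165%) with both summed. Replicate 1 passed at the MIT1 bin (adjusted p = 0.00153, ratio of shares 3.44, 95% exact interval 2.14 to 5.49). In replicate 2 the ratio was 1.58 (0.781 to 2.99), so its interval held 1, and the replicates summed gave an adjusted p of 0.0124. In Rpi1, a fusion of the same pools, the bin held 672 and 576 sites, at 33.6% and 28.8% of the possible positions and directions. Of the Lee1 sites there, 34 of 35 and 12 of 13 were identical in position and direction to an Rpi1 site of the same pool, and 34 and 11 to one of the other pool. Of these Lee1 sites 20 of 35 and 7 of 13 had 1 read. The other 6 fusions held 25 to 97 sites in this bin in pool 1 and 10 to 36 in pool 2, and the 5 libraries outside the pools held 6 to 24. The part of sites shared between barcodes in the Lee1 value was not tested.

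For each of 6 other fusions the 3 bins with the highest share relative to the Sir4-free library were taken, among bins with at least 50 sites of that fusion. They made up 17 bins, because the YMR103C bin is among those of Sef1 and of Yrm1, and they are not the fullest bins of each fusion: the fullest of Gal4, at GTO3, and of Sef1, at KTI12, are not among them. In these bins Lee1 replicate 1 held 107 sites where 46.5 were expected from the Sir4-free library, and replicate 2 held 45 where 37.6 were expected. The same Sir4-free counts entered the choice of the bins, so the expected numbers can be too low. The excess is therefore not a test. The MIT1 bin alone held 35 sites against 10.2 expected and 13 against 8.22. Of these, 84 and 31 were identical to a site of a fusion that is strong there in the same pool, and 83 and 31 to one of that fusion in the other pool. In the bin of HSV2 and AZR1, where Yrm1 is strong, 13 of 13 and 6 of 6 Lee1 sites were shared with Yrm1, with either pool. In the bin of the aconitase gene ACO1, where Sef1 is strong, 7 of 7 and 4 of 4 were shared with Sef1 of the same pool and 7 and 3 with that of the other. Lee1 lay above the scaled control in 13 of the 17 bins in replicate 1 and in 9 in replicate 2, and the bins at DDR48 and at YPR1 held 0 and 0 Lee1 sites.

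**Figure D4:**
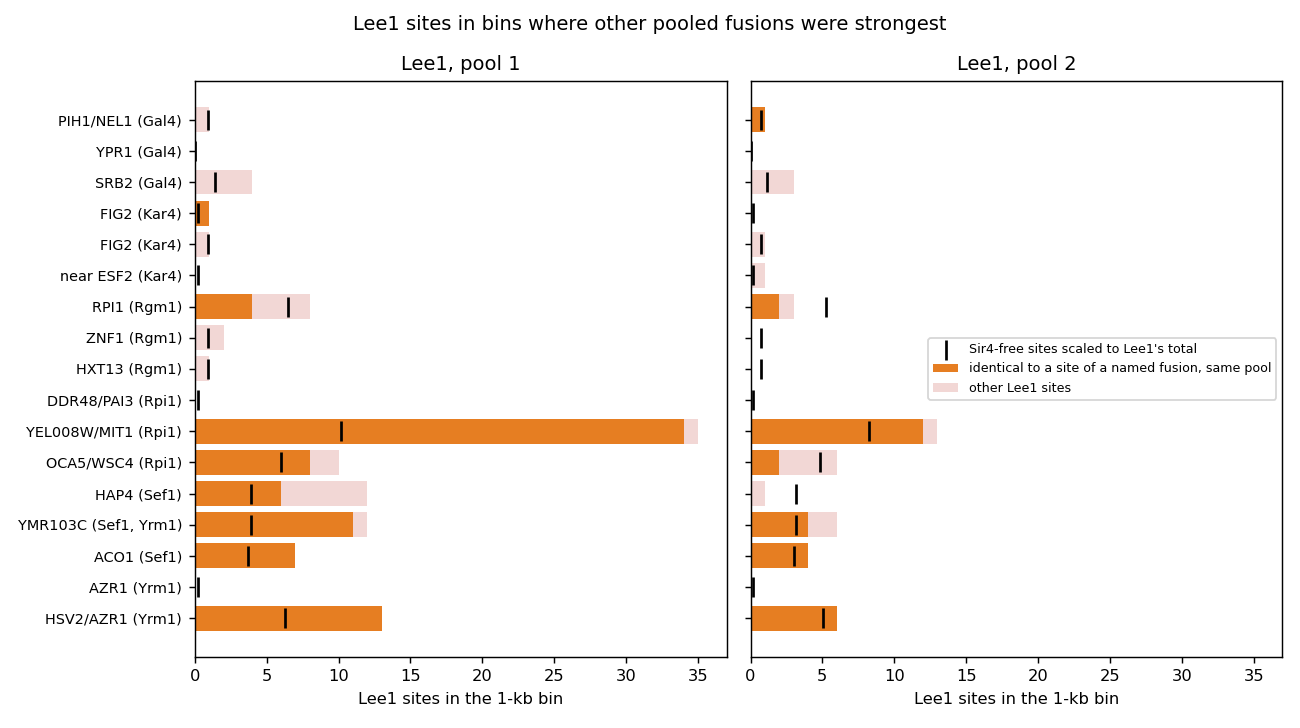
Lee1 sites in 17 bins where another pooled fusion has its highest share relative to the Sir4-free library, by replicate, split into sites identical to a site of the fusion named at the bin in the same pool and other sites, with the Sir4-free count scaled to the Lee1 total as markers. Replicate 1 holds 107 sites against 46.5 expected, and replicate 2 holds 45 against 37.6. The Sir4-free counts also entered the choice of the bins, so the expected numbers can be too low.

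Across the genome 3279 Lee1 sites (17.8%) of replicate 1 and 2009 (13.5%) of replicate 2 were listed at the identical position and direction by another library of the same pool. With the libraries of the other pool 2204 (11.98%) and 2297 (15.4%) were identical, and with the Sir4-free library 1704 (9.26%) and 1384 (9.31%). The libraries of the other 7 fusions listed 130922 distinct sites in pool 1 and 91317 in pool 2. As a share of each fusion's own sites, 2.91% to 4.27% were also listed by Lee1 replicate 1 in its own pool and 2.52% to 3.82% across pools, and for replicate 2 the shares were 2.39% to 3.42% and 2.03% to 2.95%. For both replicates the share was higher within the pool for 7 of 7 fusions. The Lee1 replicates had 411 sites in common, which were 2.23% of replicate 1 and 2.76% of replicate 2.

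Between the Lee1 replicates, Fisher's exact test called 0 of 2156 bins of 1 kb (0%), with 73 (3.39%) at an unadjusted p below 0.05, and 1 of 1199 windows of 10 kb (0.0834%). The called window, chromosome 11 from 230001 to 240000 near HAP4, the activator of respiratory genes, held 51 sites in replicate 1 and 11 in replicate 2 (adjusted p = 0.0114), against 100 in the Sir4-free library. Sef1 held 759 and 678 sites in this window, and 27 of the 51 and 5 of the 11 Lee1 sites were identical to Sef1 sites of the same pool. Its KTI12 bin held 27 and 4 Lee1 sites, of which 21 and 4 were shared with Sef1.

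By position along chromosomes the Lee1 libraries lay close to the Sir4-free library. Within 20 kb of chromosome ends lay 6.43% and 6.44% of Lee1 sites and 6.83% of Sir4-free sites, ratios of 0.941 (95% exact interval 0.883 to 1.00) and 0.942 (0.879 to 1.01). Within 10 kb of centromeres lay 2.99% and 2.85% against 3.52%, ratios of 0.850 (0.775 to 0.932) and 0.809 (0.729 to 0.897), and both intervals lay below 1. In windows of 600 bp upstream of genes lay 58.2% and 56.5% against 57.1%, with 1 replicate on each side of the control. Sfg1 had 5.42% and 6.11% at the ends and 3.05% and 3.17% at centromeres. The other 6 fusions had 0.987% to 7.49% at the ends and 1.02% to 2.54% at centromeres.

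**Figure D5:**
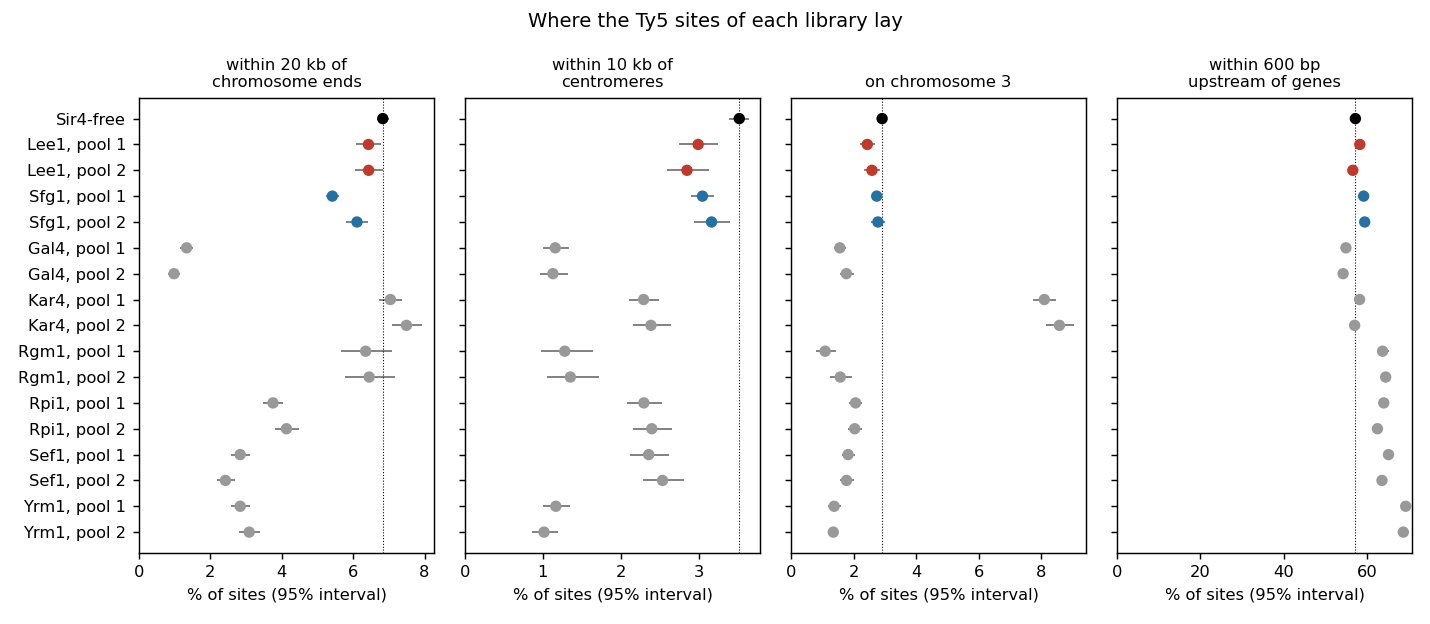
Percent of sites in 4 position classes for the Lee1 libraries, the Sir4-free library and the 14 libraries of the other 7 pooled fusions, with 95% exact intervals. Lee1 has 2.99% and 2.85% of sites within 10 kb of centromeres, against 3.52% in the Sir4-free library.

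Chromosomes took Lee1 sites nearly in the proportions of the Sir4-free library. With both replicates summed, the ratio of shares ran from 0.813 on chromosome 1 (95% exact interval 0.735 to 0.898) to 1.04 on chromosome 4 (1.01 to 1.08), with a median of 0.996. On chromosome 3, which carries the silent mating-type loci, it was 0.861 (0.794 to 0.932). The intervals of the other 13 of 16 chromosomes held 1. Chromosome 1 includes the called 10-kb window, with 8 and 15 Lee1 sites where the control scaled to 57.3 and 46.3. Its ratio counts that deficit again, and a ratio without the window is not given here.

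Set against the mean of the other 7 fusions of the same pools, Lee1 did differ, in 50 of the 7003 bins. EdgeR called 24 bins higher (0.343%) and 26 lower (0.371%), with both Lee1 replicates on the called side in all 50. The same 2 Lee1 libraries made these calls, so their agreement and their shares in these bins are no separate support. None of the 50 was called against the Sir4-free library. In 23 of the 24 higher bins the Sir4-free library also lay above the mean of the other fusions, with a median share of 0.0430% in Lee1, 0.0232% in the Sir4-free library and 0.00952% over the other fusions. The fullest other fusion was Sfg1 in 13 of the 24, Kar4 in 10 and Rpi1 in 1. Without replicate 1 the count of higher bins was 0 and without replicate 2 it was 7, and the lower bins were 7 and 1. The counts also moved with the scaling, to 47 higher and 25 lower with RLE factors and to 91 higher and 23 lower with library size only.

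Several of the higher bins lay beside centromeres or chromosome ends, which were looked at after the calls were seen. Within 1 kb of a centromere lay 4 of 24 higher bins (16.7%, against 0.457% of all tested bins), and within 20 kb of an end lay 6 (25%, against 6.23%). The ERG26 bin, at a gene of sterol synthesis, held 12 and 6 Lee1 sites and 24 Sir4-free sites, with a log2 difference from the other fusions of 3.72 (SE 0.72, adjusted p = 7.26e-04). The centromeric bin of TFC3, a subunit of the transcription factor TFIIIC, and NUP60 held 14 and 8 sites (log2 2.54, adjusted p = 0.00405), and the one near RMD1 held 25 and 12 (log2 1.52, adjusted p = 0.0119). Near chromosome ends the bin of the seripauperin gene PAU16 held 8 and 3 sites (log2 3.73) and that of COS8 held 7 and 6 (log2 3.30).

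Other higher bins lay in chromosome arms. The bin of SOP4 and the ribosomal protein gene RPS14B held 13 and 3 Lee1 sites and 19 Sir4-free sites (log2 3.58). The bin of TIM13, which encodes a small chaperone of mitochondrial import, and QCR9, a subunit of respiratory complex III, held 6 and 9 against 13. The bin of RIB5, of riboflavin synthesis, and POP4 held 14 and 11 against 27, and that of the phosphatase gene MSG5 held 7 and 10 against 19. The bin of CDC19, which encodes pyruvate kinase, held 12 and 10 against 50 (log2 1.76, adjusted p = 0.0404).

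The lower bins were places where another fusion had gathered insertions. In all 26 the Sir4-free library was below the mean of the other fusions. How often this held over all tested bins is not given here. The median share in the lower bins was 0.0581% in Lee1 and 0.0540% in the Sir4-free library against 0.395% over the others. The fullest other fusion was Gal4 in 10 of them, Yrm1 in 9, Sef1 in 5, Rgm1 in 1 and Rpi1 in 1. At the YMR103C bin Lee1 held 12 and 6 sites where Yrm1 held 335 and 357 (log2 -2.19, adjusted p = 7.26e-04). At VHR1, which encodes a biotin-responsive transcription factor, Lee1 held 16 and 19 and Yrm1 347 and 399 (log2 -1.62, adjusted p = 0.00122). At QCR6, a subunit of respiratory complex III, Lee1 held 18 and 10 and Sef1 254 and 281 (log2 -1.87).

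At the GAL1 and GAL10 bin, the textbook target of Gal4, Lee1 held 8 and 5 sites and the Sir4-free library 17 (log2 against the other fusions -1.99, adjusted p = 0.012). At PGM2, the phosphoglucomutase gene, Lee1 held 2 and 1 sites against 15 in the Sir4-free library (log2 -2.85, adjusted p = 0.01), and Rgm1 was the fullest fusion. The bin of the proline permease gene PUT4 held 12 and 13 Lee1 sites, that of STP4 5 and 7, that of SPO24 13 and 3 and that of YGR067C 6 and 8. The MIT1 bin, the fullest of Lee1, was lower than the mean of the other fusions (log2 -1.22, adjusted p = 0.0193).

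Lee1 and Sfg1, the other fusion with 0 higher bins, were compared directly. EdgeR called 0 higher and 0 lower (0% each) of 7003 bins, with 51 and 153 at an unadjusted p below 0.05, and DESeq2 called 0 and 0, with 1 and 10. The bin of SRP72, a subunit of the signal recognition particle, held 7 and 3 Lee1 and 2 and 0 Sfg1 sites, and that of PRS4 held 2 and 4 against 0 and 0. On the lower side, the bin of TOS2 and PET54 held 1 and 3 Lee1 against 21 and 13 Sfg1 sites, and that of the isoleucyl-tRNA synthetase gene ILS1 held 0 and 0 against 14 and 4. All had an adjusted p of 0.994. When Lee1 sites listed by another library of the same pool were left out, 13 bins were called lower, and the TOS2 bin had an adjusted p of 0.0459. That setting takes sites from Lee1 and none from Sfg1.

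The LEE1 gene itself lay in bins that differed from each other. The bin with its 5′ end and that of LGE1 (chromosome 16, 455001 to 456000) held 0 and 2 Lee1 sites, both of replicate 2 in the minus direction at 455054 and 455239, against 20 in the Sir4-free library (log2 -2.23, SE 0.95, adjusted p = 0.988). The next bin, from 456001, held 5 and 3 against 6 (log2 1.32, SE 0.92, adjusted p = 0.988). Neither passed the test, and they lay on opposite sides of the control.

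For 13 gene lists the fixed 1-kb bin at each gene's upstream side was read for Lee1 against the Sir4-free library, with 151 genes tested. Such a bin can also hold coding sequence or a neighbour's promoter. Genes that share a bin, such as GAL1 and GAL10, each count its sites, so sums over genes can count a site more than once. In every list 0 genes had a called bin in either direction. Over all 5060 tested genes edgeR called 0 higher and 2 lower, with 208 at an unadjusted p below 0.05, and the median log2 difference was -0.32. The ribosomal protein genes had a median of 0.00 over 17 genes, the Gal4 targets -0.03 over 11, the silencing genes -0.08 over 8, the multidrug resistance genes -0.12 over 11 and the filamentous growth genes -0.14 over 10. The mating genes had a median of -0.66 over 22, the genes of CCCH proteins -0.57 over 5, the respiratory genes -0.53 over 13 and the hexose transport genes -0.46 over 8. In these lists, in the same order, the median gene held 2.5, 2, 7 and 1.5 Lee1 sites. Their sums were 66 Lee1 against 175 Sir4-free sites, 15 against 62, 125 against 292 and 19 against 57. Over all genes the sums were 26635 against 62862. The respiratory sums were in proportion to these, despite the negative median.

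The remaining lists lay between these: glycolysis had a median of -0.20 over 13 genes, heat shock -0.24 over 13, G1 cyclins -0.29 over 11 and cell wall -0.41 over 11. Their sums were 206 Lee1 against 463 Sir4-free sites, 66 against 144, 107 against 198 and 129 against 291. Of the members with most Lee1 sites in their lists, MIT1, PCL2 and QCR6 are described above. The galactose-inducible gene GCY1 held 18 and 12 Lee1 sites against 62, the phosphofructokinase gene PFK1 21 and 6 against 49, the drug transporter gene PDR15 13 and 5 against 46 and the cell-wall gene SED1 12 and 13 against 52. The ribosomal protein gene RPS3 held 14 and 7 against 41, the heat shock gene HSP12 11 and 5 against 24, the telomere gene RIF2 8 and 4 against 20 and the cell-fusion gene PRM1 6 and 3 against 12. Among the relatives of LEE1, CTH1 held 3 and 4 sites against 12 and TIS11 held 1 and 0 against 17. TIS11 had an unadjusted p of 0.012 and an edgeR adjusted p of 0.988.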

How the data were processed

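Per the labels, each deposited file gives the chromosome, position, direction and raw read counts of every insertion. The counts are the authors' numbers of reads, without normalization. The sources used here name no aligner, genome build or read filter. Each distinct site was counted as 1, and 4540 repeated entries of the Sir4-free file were dropped. Sites were summed in bins of 1 kb and windows of 10 kb in the files' coordinates. The R64 annotation served for names and neighbours only. Since chromosome 11 is displaced between the builds, its genes were left out of the gene lists and the upstream class.

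Bins with at least 10 sites in the 16 pooled libraries and the Sir4-free library were fitted in edgeR 4.0.16 (R 4.3.3, glmQLFit and glmQLFTest, TMM factors, 1 group per fusion), with two-sided p-values adjusted over all bins by the Benjamini-Hochberg method and a threshold of 0.05. The biological coefficient of variation was 0.110 at 1 kb and 0.0770 at 10 kb, with 8 residual degrees of freedom. DESeq2 1.42.0, Fisher's exact tests (in R), other site rules, scalings, filters, bin edges and left-out replicates were tried as alternatives. The edgeR step was tested on simulated data with known changes. Ratios of shares carry 95% exact intervals conditional on the sum of both counts. The other 5 libraries (plasmid and Thi2) entered no fit.

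The labels' replicate number marks a shared pool. Differences between the Lee1 replicates correlated with those of the other fusions with a median of 0.0309 over 252 bins (-0.0496 to 0.128). Labels call the pools biological replicates, and p-values measure the spread between such libraries.

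In each comparison and direction, named bins come from the 10 called with the smallest p and both Lee1 replicates on that side. Where fewer than 5 were called, they come from the 5 with the smallest p. Not every bin of these sets is named. The text also names the 10 bins with the largest mean Lee1 share, the bins of LEE1 and the interior of SIR4. Further names come from list members that were called or had most Lee1 sites, and from the strongest bins of other fusions. The libraries, lists and bins were chosen with earlier results of these data known.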

Additional observations from a re-analysis of the deposited data

How the results depend on the processing

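Lee1 against the Sir4-free library gave 0 higher bins of 1 kb under every edgeR and DESeq2 setting tried, and Fisher's exact test called 1 with replicate 1 and 1 with both replicates summed (MIT1). The 2 lower bins became 1 with sites of at least 5 reads, 4 with bin edges moved, 1 without replicate 1 (2 without replicate 2), 0 with DESeq2 and 1 with Fisher's test of replicate 2. At 10 kb, 1 higher window was called with sites of at least 2 reads and 1 with Fisher's test of replicate 1 (near HAP4, adjusted p = 0.00838). The 1 lower window became 2 with library size only, without Lee1 sites shared in the pool (chosen after seeing the data), with Fisher's test of replicate 2 and with both summed, 0 with the Lee1 and Sir4-free libraries only, which leaves fewer libraries to estimate the spread, 3 at 2 kb and 2 at 5 kb. The window added was that of YCP4 and CIT2 with library size only (adjusted p = 0.0489) and without shared sites (1.09e-04). Against the other 7 fusions the 24 higher bins became 47 with RLE factors, 91 with library size only, 15 and 47 with a minimum of 1 and 30 sites, 5 and 2 with at least 2 and 5 reads, 6 with DESeq2 and 0 to 7 with a replicate left out. The 26 lower became 47 with a minimum of 30 sites, 7 and 1 with at least 2 and 5 reads, 9 with sites joined, 68 without shared sites and 1 to 7 with a replicate left out. Against Sfg1, 13 lower bins were called without shared sites. The ratio at chromosome ends, 0.942, was 0.952, 0.950 and 0.948 with at least 2 reads, at least 5 reads and sites joined, 0.928 within 10 kb and 0.960 within 50 kb. The ratio at centromeres, 0.830, was 0.779 with at least 2 reads and 0.876 within 5 kb, and that upstream of genes was 1.03 with sites joined. Apart from the smaller fit, the cause was not tested. A replicate block by pool changed no call against the Sir4-free library or Sfg1 and gave 23 higher and 26 lower bins against the other fusions. Scaling moved the median log2 of 1-kb bins from -0.32 (TMM) to -0.13 (RLE) and -0.07 (library size). The ratio upstream of genes lay on both sides of 1 across settings (0.986 to 1.03). A single Sir4-free library, 33270 Lee1 sites and a median of 2 Lee1 sites per 1-kb bin limit these comparisons.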
